A study of Homo sapiens with 9 samples.

Results

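The transcript described here was that of FN1, the gene for fibronectin, on the minus strand of chr2:216225163-216300796 (hg19). Its members were the minus‐strand QKI‐5 peaks whose centre lay inside those coordinates, and there were 24 of them among 24037 listed peaks, or 0.0998% of the list. No plus‐strand peak was centred in the gene. The peaks came from HITS‐CLIP, a method in which living cells are irradiated with ultraviolet light so that proteins become joined to RNA in contact with them, 1 protein is pulled down with an antibody, and its RNA fragments are sequenced. mesHMLE cells were used, a mesenchymal line derived from the immortalised human mammary epithelial line HMLE with 2.5 ng/ml TGF‐β1 over at least 14 days and then kept without added TGF‐β1, and the crosslinking dose was 600 mJ/cm2. There were 3 libraries from the gel region of monomeric QKI‐5, 3 from that of the presumptive dimer, 1 further dimer library reverse transcribed with SuperScript IV, and 2 size‐matched inputs, all technical replicates of this one line in 1 condition. The authors pooled the libraries before calling peaks against the input, so that no value below has a spread between replicates, the depth of each library is not known from the list, and no condition could be compared.

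Fibronectin is a large secreted glycoprotein that cells assemble into extracellular fibrils and bind through integrins, and its gain is a classical mark of the mesenchymal state. Its transcript is spliced at the extra domain B (EDB) exon, the extra domain A (EDA) exon and the variable region, so that cellular fibronectin can carry segments that plasma fibronectin from the liver lacks. QKI‐5 is the nuclear isoform of quaking, a STAR‐family RNA‐binding protein whose known recognition element in RNA is ACUAAY, where Y is C or U, together with a shorter site UAAY. In the DNA letters used below these are ACTAAC or ACTAAT and TAAC or TAAT.

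The reference transcript FN1-203 had 46 exons within a gene of 75634 nt, and its exons, 8390 nt in all, made up 11.2% of its own span. The EDB exon was exon 25 (chr2:216257654-216257926), 273 nt long and coding for 91 residues. It was present unchanged in 3 and skipped in 7 of the 10 annotated full‐length coding transcripts. The EDA exon was exon 33 (chr2:216245534-216245803), 270 nt long and coding for 90 residues, present in 5 and skipped in 5 of those transcripts. The variable region was carried by exon 40 (chr2:216236632-216237098), 467 nt long, which was unchanged in 3 of them and shortened or otherwise altered in 7.

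Peaks from the introns beside EDB and EDA are shown first, namely the 5 beside EDB that hold TAAC, the tallest peak of the gene, and both peaks of the intron before EDA. All sequences are the RNA strand of FN1 in DNA letters, 5′ to 3′, from the GRCh37 minus strand, and the peaks are numbered P1 to P24 from the 5′ end of the transcript. In the peaks, capitals mark ACTAAC and the short site TAAC or TAAT, and P18 and P21 hold neither. P9, P13 and P15 come from the intron before EDB, P17, P18 and P20 from the intron after it, and P21 and P22 from the intron before EDA.
P9 (chr2:216258906-216259018): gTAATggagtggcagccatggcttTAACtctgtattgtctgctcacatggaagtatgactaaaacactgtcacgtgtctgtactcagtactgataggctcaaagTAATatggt
P13 (chr2:216258473-216258522): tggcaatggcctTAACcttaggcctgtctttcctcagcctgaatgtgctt
P15 (chr2:216257924-216257978): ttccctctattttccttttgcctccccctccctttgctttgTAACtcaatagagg
P17 (chr2:216257067-216257147): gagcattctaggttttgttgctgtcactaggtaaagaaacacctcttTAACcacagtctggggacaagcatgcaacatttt
P18 (chr2:216256908-216257004): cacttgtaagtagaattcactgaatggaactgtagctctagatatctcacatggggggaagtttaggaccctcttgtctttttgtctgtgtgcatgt
P20 (chr2:216256708-216256759): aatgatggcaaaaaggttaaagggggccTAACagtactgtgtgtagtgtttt
P21 (chr2:216246605-216246699): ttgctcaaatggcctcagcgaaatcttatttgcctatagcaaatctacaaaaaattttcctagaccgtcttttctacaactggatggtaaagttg
P22 (chr2:216246111-216246168): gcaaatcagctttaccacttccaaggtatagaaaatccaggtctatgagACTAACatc

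The splice sites of both exons are shown for comparison with P15, which ran over the EDB acceptor. Here capitals mark exon bases.
EDB 3′ splice site (chr2:216257921-216257980): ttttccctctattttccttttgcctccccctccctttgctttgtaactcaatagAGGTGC
EDB 5′ splice site (chr2:216257630-216257659): AAACGGgtgaattttgaaaacttctgcgtt
EDA 3′ splice site (chr2:216245798-216245857): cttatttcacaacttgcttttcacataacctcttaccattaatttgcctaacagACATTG
EDA 5′ splice site (chr2:216245510-216245539): CCACAGgtatatggttaattgcaccaccag

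On the reference transcript, the QKI‐5 peaks of FN1 were intronic. All 24 centres lay in its introns and 0 in exons, a share of 0.0% whose 95% Wilson interval reached 13.8%. Exons held 8.86% of the 20238 listed peaks centred in protein‐coding reference transcripts across the genome, and the interval included that share. Wilson intervals here and below cover counting error only. One peak, P15, crossed an exon boundary. Introns 1, 19, 20, 22, 24, 25, 32 and 33 held peaks, and the remaining 37 introns held none. The peaks covered 1385 nt, or 1.83% of the gene. The largest stretch without a peak was 30307 nt between P2 in intron 1 and P3 in intron 19, and a further 18540 nt at the 3′ end, with 13 exons and 12 introns, had none.

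**Figure D1:**
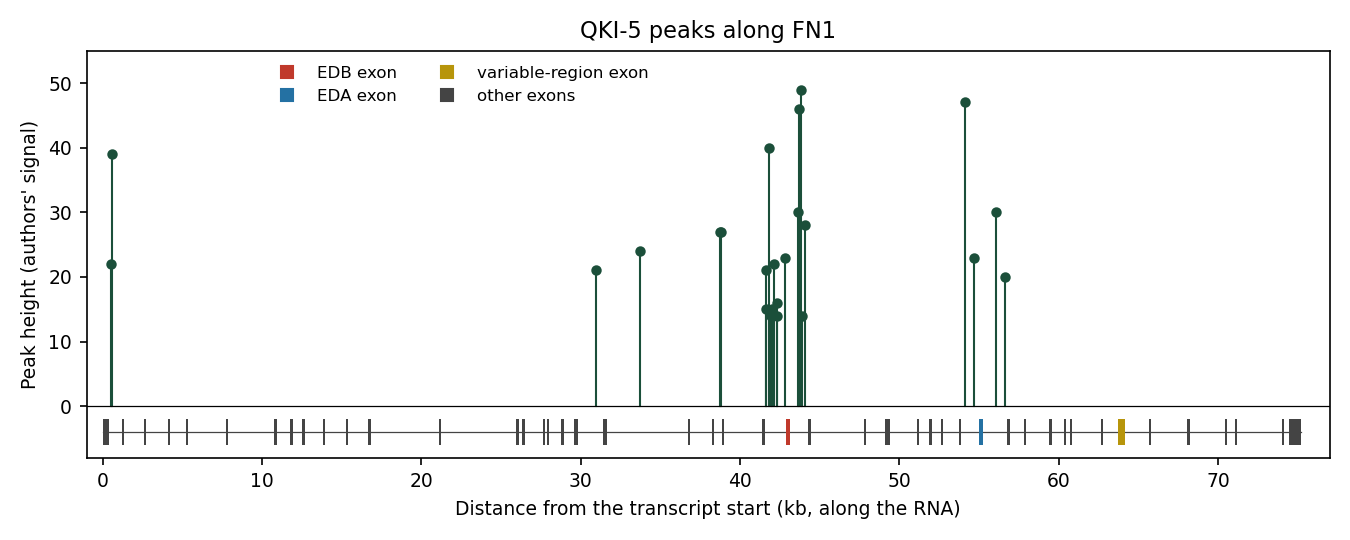
Position and height of the 24 QKI‐5 peaks along FN1. The horizontal axis is the distance from the transcript start in kb along the RNA, the vertical axis is the height in the authors' units, each stem is 1 peak, and the boxes under the axis are the 46 exons of the reference transcript with EDB, EDA and the variable region coloured. The stems gather between exons 24 and 26 around EDB, with 4 more around EDA and none at the variable region.

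The introns on both sides of the EDB exon carried 14 of the 24 peaks. Introns 24 and 25 together were 2440 nt long, 3.65% of the intron length of FN1, and held 58.3% of the peaks (interval 38.8 to 75.5%). The share was 46.2% among peaks at or above the median height of the list and 50.0% after peaks within 50 nt of each other were joined. That was 5.74 peaks per kb, and 34.7% of the bases of these introns lay inside a peak. The introns beside EDA, 32 and 33, made up 3.93% of the intron length and held 4 peaks, or 16.7% (interval 6.68 to 35.9%), at 1.52 per kb. The introns beside the variable region, 2422 nt long, held 0 peaks. Outside the EDB and EDA introns, 41 introns of 61750 nt held the other 6 peaks, at 0.0972 per kb. Among these 41, intron 22 stood at 4.39 and intron 1 at 2.41 per kb, with 2 peaks each. Both were denser than the introns beside EDA, intron 32 at 1.77 and intron 33 at 1.34 per kb. Peak density was thus not higher beside EDA than in every other intron. Together the EDB and EDA introns held 18 peaks, 75.0% (interval 55.1 to 88.0%), on 7.58% of the intron length, and 14 of these lay beside EDB. This grouping by whole introns was chosen after the positions had been seen and is a description without a test.

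**Figure D2:**
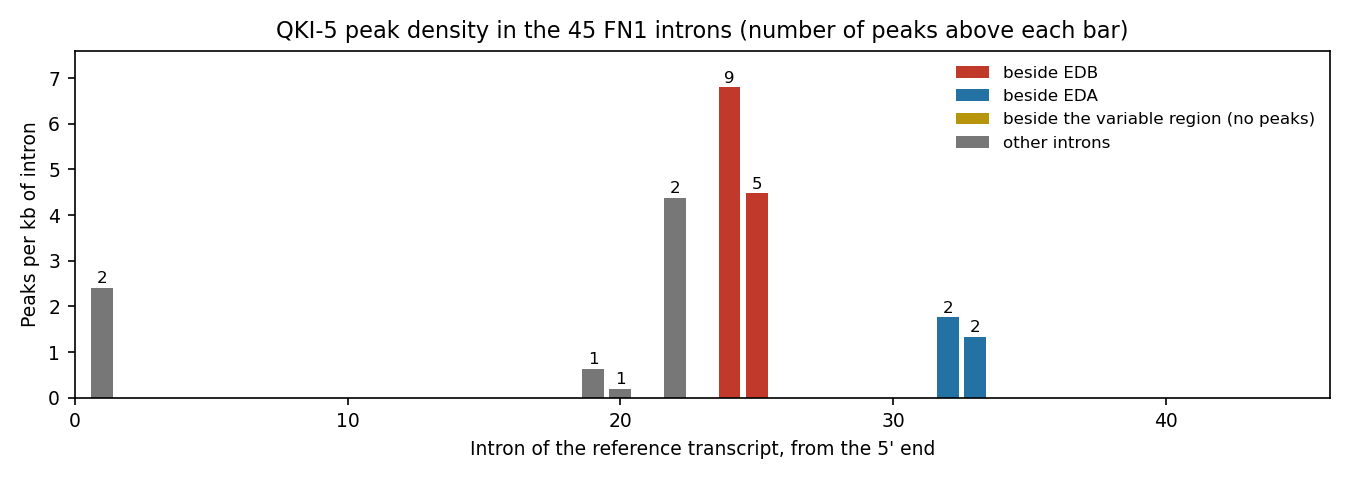
QKI‐5 peaks per kb in each of the 45 introns of the FN1 reference transcript, numbered from the 5′ end. Bars give the density and the number written over each bar the peaks. Intron 24 stood at 6.80 and intron 25 at 4.48 per kb, while 37 introns were at 0. Intron 22, at 4.39 per kb, and intron 1, at 2.41, stood above introns 32 (1.77) and 33 (1.34) beside EDA.

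Intron 24, which leads into EDB, was 1324 nt long and held 9 peaks over 40.3% of its bases. The series opened with P7 (height 15), 30 nt after exon 24, and P8 (21) followed after a gap of 2 nt at 93 nt from that exon. P9, of height 40 and 113 nt wide, was the widest FN1 peak, and P10 (14) and P11 (15) continued from it with gaps of 1 nt each. P9 was thus the tallest peak of intron 24, and P9 to P11 made 1 run of 230 nt when peaks within 50 nt were joined. P12 (22) stood 718 nt before EDB. P13 (16) and P14 (14) lay side by side, at 546 and 510 nt before it.

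P15 was the only FN1 peak at a splice site. It was 55 nt wide with a height of 23, covered the last 52 nt of intron 24 and reached 3 nt into the EDB exon, and its summit lay in the exon. Its bases were 41.8% T and 23.6% purine, and they comprised the pyrimidine tract of the EDB acceptor, a TAAC and the AG dinucleotide that ends the intron, as the printed sequence shows. Within 250 nt of EDB on either side this was the sole peak. The EDB 5′ splice site had none, and neither splice site of EDA or of the variable region exon had one within that distance.

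Intron 25, which leads out of EDB, was 1116 nt long and held 5 peaks over 28.0% of its bases. It carried the tallest peak of the gene, P18, with a height of 49 over 97 nt, 649 nt after EDB and 370 nt before exon 26. P17, with a height of 46, lay 506 nt after EDB, and P16 (30) ended 7 nt before it and began 454 nt after EDB. P18 and P17 lay at the 87.5 and 85.9 percentiles of height in the whole list. P19 (14) trailed P18, and P20 (28) stood 170 nt before exon 26. Apart from P15, the peak nearest to EDB on the upstream side was thus P14, at 510 nt, and on the downstream side P16, at 454 nt. The median height of the 14 peaks beside EDB was 21.5, with a range of 14 to 49, and their heights summed to 55.3% of the total over FN1.

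Beside the EDA exon there were 4 peaks, and none touched the exon. In intron 32, before EDA, P21 had a height of 47 and a width of 95 nt, 235 nt after exon 32 and 801 nt before EDA. P22, of height 23, lay 307 nt before EDA. It was the only FN1 peak with ACTAAC, which began 18 nt to the 3′ side of the summit and ended 310 nt before the EDA exon, with the sequence printed above. In intron 33, after EDA, P23 (30) lay 805 nt downstream of the exon, and P24 (20) lay 1368 nt downstream of it and 87 nt before exon 34. The median height of the 4 was 26.5. No peak lay within 250 nt of EDA, and 1, P22, lay within 500 nt.

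**Figure D3:**
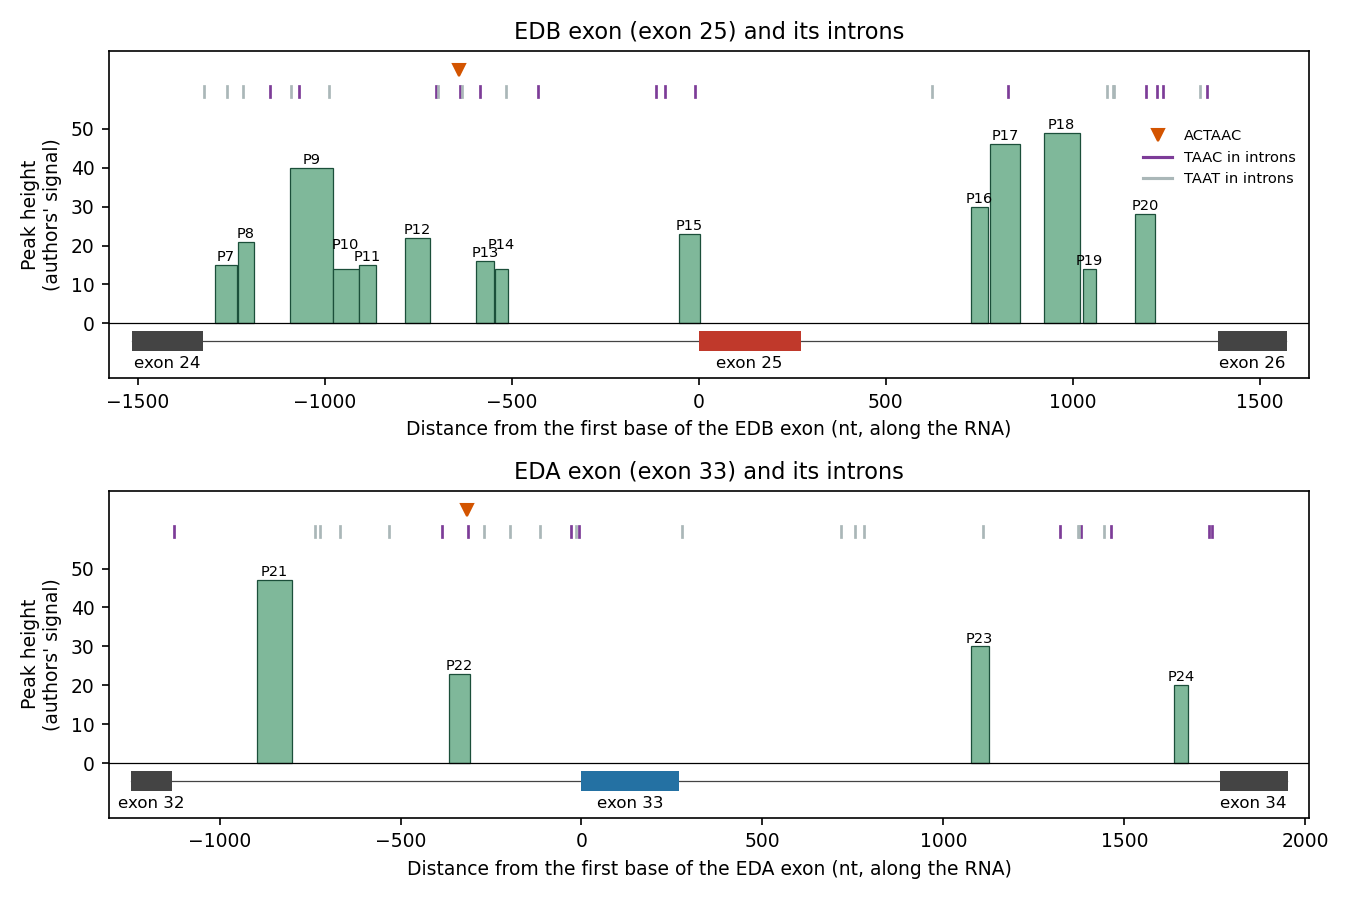
QKI‐5 peaks around the EDB exon (upper panel) and the EDA exon (lower panel). The horizontal axis is the distance in nt from the first base of the exon along the RNA, boxes under the axis are exons, bars span each peak and rise to its height in the authors' units, ticks mark TAAC and TAAT in the introns and triangles mark ACTAAC. P15 ends on the EDB exon, the next peaks after EDB begin 454 nt beyond it, and the ACTAAC beside EDA falls in P22 while that beside EDB falls between P12 and P13.

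The other 6 peaks were spread over 4 introns. P1 (22) and P2 (39) lay in intron 1, 62 and 155 nt after exon 1, which holds the start of the transcript. P3 (21) lay in intron 19, 406 nt before exon 20, and P4 (24) in intron 20, the longest intron with a peak at 5037 nt, 1988 nt after exon 20. P5 and P6, both of height 27, lay 1 nt apart in intron 22, 67 and 61 nt before exon 23, and P6 was only 5 nt wide, which makes them hard to count as separate. The sequences of 3 of these 6 are printed here, and they were unlike one another. P1 was rich in G and T, P5 was 90.9% purine, and P4 held a pair of TAAC sites.
P1 (chr2:216300264-216300315): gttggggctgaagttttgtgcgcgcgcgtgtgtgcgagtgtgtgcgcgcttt
P4 (chr2:216267052-216267123): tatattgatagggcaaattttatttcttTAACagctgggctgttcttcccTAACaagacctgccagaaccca
P5 (chr2:216262014-216262046): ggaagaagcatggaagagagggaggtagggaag

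Heights on FN1 were moderate. They ran from 14 to 49 with a median of 23 (quartiles 19 and 30), and the median of the whole list was also 23 (quartiles 18 and 33). At or above the list median stood 13 of the 24, beside 53.4% of all listed peaks. At or above the upper quartile of the list stood 5 peaks, namely P2, P9, P17, P18 and P21, beside 25.5% of the list. Of these 5, 3 lay beside EDB and 1 beside EDA. Widths ran from 5 to 113 nt with a median of 52 nt, against 61 nt for the list, and 7 of the gaps between neighbours were under 10 nt. Joining peaks within 50 nt of each other left 16 runs, 8 of them in the EDB introns, so the number of separate sites is less certain than the bases they cover.

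The full recognition element was in 1 FN1 peak, and the short site was in 11. ACTAAC occurred in 1 of 24 peaks, or 4.17% (interval 0.739 to 20.2%), beside 10.1% of the 24019 nuclear peaks, and the interval included the latter. ACTAAC or ACTAAT occurred in the same peak alone, beside 13.7%. A short site, TAAC or TAAT, occurred in 11 peaks, or 45.8% (interval 27.9 to 64.9%), beside 37.5%. All motifs were searched on the RNA strand, and every ACTAAC also contains the short site. In windows of equal length 500 nt away, ACTAAC occurred in 0 of 24 on the 5′ side and 1 of 24 on the 3′ side, beside 1.56% and 1.83% for the list. The 1 hit was the site in P22 again, reached by the window placed from P21. Some other windows also overlapped FN1 peaks, so for this gene the windows are not a background free of peaks. On the opposite strand, which the protein would not see in this RNA, ACTAAC occurred in 0 of the 24 peaks. With 1 of 24 on the RNA strand and no list share beside it, this count is too small to compare the strands.

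Most of the ACTAAC sites of FN1 lay outside peaks. The gene held 12, of which 11 were in introns, and 1, in P22, was inside a peak. The site in intron 24 lay between P12 and P13, 39 nt from the nearer one, and the remaining ones were at least 201 nt from any peak. None of the 16 ACTAAT sites lay in a peak. The share of ACTAAC sites inside peaks, 8.33%, was close to the median of 9.80% over the 432 genes with at least 12 peaks and at least 1 site. Of the 7 peaks with TAAC, 5 (P9, P13, P15, P17 and P20) lay beside EDB. In the EDB introns 10 of the 27 short sites, or 37.0%, were inside a peak, while peaks covered 34.7% of the bases. Of the 14 TAAC sites there 5, or 35.7%, were inside. The short sites thus fell in peaks beside EDB at about the rate of any other base. The EDB introns held 11.1 short sites per kb, and all FN1 introns 10.2 per kb. For TAAC alone the densities were 5.74 per kb in the EDB introns and 3.40 per kb in all FN1 introns. For ACTAAC they were 0.410 per kb, from 1 site, and 0.165 per kb.

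The annotation also bears on where these peaks lie. FN1-224, an annotated transcript of the retained intron type, keeps introns 25, 29, 32 and 33 whole and the end of intron 24. The centres of 10 peaks, P15 to P24, fell in its exons. Counted against any annotated FN1 transcript the exonic share was therefore 41.7%. The list cannot tell RNA of that transcript from unspliced pre‐mRNA.

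Among 20162 protein‐coding genes, 4750 or 23.6% had at least 1 peak, and FN1 with 24 ranked 119, level with 7 others. The 10 genes with most peaks, NAV2 (186), CCBE1 (141), MICAL3 (129), CRIM1 (82), EXT1 (79), ASAP1 (72), KLC1 (72), CANT1 (71), TRIO (70) and SMYD3 (63), had far more. Per kb of gene FN1 had 0.317 peaks, rank 111 of 433 genes with at least 12 peaks, whose median was 0.158. RNA levels were not analysed here, and their part in these ranks was not tested. Among the same genes, 271 had neither a peak wholly in an exon nor one across a boundary, so intronic placement is common.

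The gathering of peaks in a neighbouring pair of introns was compared with other genes. For each of 414 genes with at least 12 peaks, the pair of adjacent introns with most peaks was taken, and the share of peaks was divided by the share of intron length. The ratio for FN1 was 16.0, rank 21, and the median was 2.25. By the share of peaks alone FN1 ranked 260, its 58.3% being below the median of 69.0%. The high ratio of FN1 thus came with a short pair of introns, 3.65% of the intron length against a median of 30.1%. This comparison was chosen after the FN1 values had been seen, and the choice of the best pair in each gene favours high ratios.

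**Figure D4:**
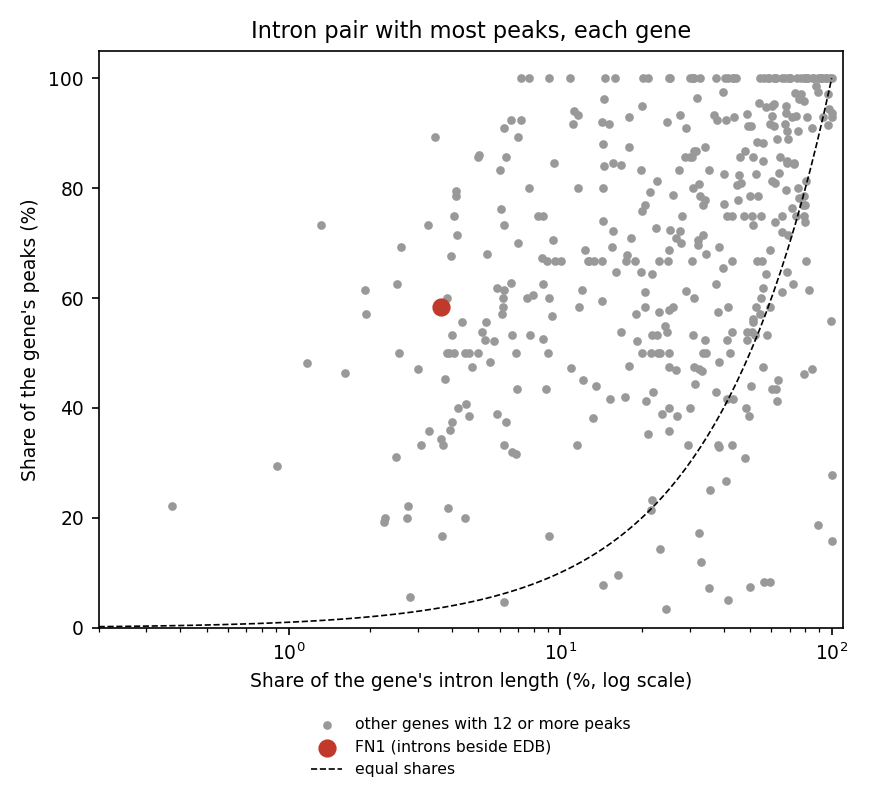
For each gene with at least 12 peaks, the share of its intron length (horizontal log axis, %) and the share of its peaks (vertical axis, %) in the adjacent intron pair with most peaks. Grey points are other genes, the red point is FN1 and the dashed curve marks equal shares. FN1 sits at 3.65% of length and 58.3% of peaks, well above the curve, together with a group of other genes.

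By the placement of peaks in 4 classes (wholly exonic, across a boundary, intronic within 250 nt of an exon, or deeper) FN1 had 0.0, 4.17, 41.7 and 54.2%. Among genes with at least 12 peaks the closest by Euclidean distance between these percentages were CD47 (21 peaks, distance 4.69), PFN2 (19, 5.61), DCUN1D2 (12, 5.89), SYMPK (12, 5.89) and MAP4K4 (28, 6.68). The likeness rests on 4 shares per gene and carries no statement about function.

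A list of 37 genes linked to fibronectin or to the splicing of its transcript was read. It held 10 receptors, 12 matrix partners and 7 genes for proteins that link integrins to the cytoskeleton. It also held 8 splicing factors known to act on the EDA or EDB exon. Of the 37 genes 21 had a peak, or 56.8% (interval 40.9 to 71.3%), beside 23.6% of all protein‐coding genes. At least 3 peaks were found in 11 of them, beside 9.96% of all protein‐coding genes, and a peak at or above the list median of height in 16, beside 17.0%. No test was made, and neither RNA level nor gene length was taken into account. Among 10 receptors, 4 had a peak, or 40.0% (interval 16.8 to 68.7%). ITGA5, the alpha chain of the classical fibronectin receptor, had 0 peaks, its partner ITGB1 had 4 with a tallest height of 49, and ITGAV, the alpha chain of integrins that bind fibronectin and vitronectin, had 1. Among 12 matrix partners 5 had a peak, or 41.7% (interval 19.3 to 68.0%). Only SPARC, a collagen‐binding matricellular protein, passed 5, with 9 peaks up to a height of 197.

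Of the 7 genes for proteins that link integrins to the cytoskeleton, 6 had a peak. That was 85.7% (interval 48.7 to 97.4%), beside 23.6% of all protein‐coding genes. PTK2, focal adhesion kinase, had 45 peaks, TLN1, talin, which joins integrin tails to actin, had 38, and VCL, vinculin, had 34. PXN, the adaptor paxillin, had 9 and FERMT2, kindlin-2, had 6. Of these 5, all but FERMT2 had a peak taller than the tallest of FN1, with maxima of 559 in PTK2, 219 in TLN1, 155 in VCL and 73 in PXN.

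Of 8 splicing factors known to act on the EDA or EDB exon, 6 had a peak. That was 75.0% (interval 40.9 to 92.9%), beside 23.6% of all protein‐coding genes. RBFOX2, which binds UGCAUG in introns, had 15 up to a height of 59. PTBP1, the polypyrimidine tract binding protein, had 7 up to 57, and TRA2B, an SR‐like activator of exons, had 6 up to 27. The tallest peaks of RBFOX2 and PTBP1 were thus somewhat above that of FN1, and that of TRA2B below it. Heights compared between genes, here and for the integrin‐linking proteins, were not adjusted for RNA level or for the number of peaks in a gene.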

How the data were processed

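The deposited values were one list of QKI‐5 peaks on hg19, in which the height of a peak is a whole‐number signal written by the authors for the pooled libraries. According to the labels and methods, reads were trimmed (cutadapt 1.3), mapped (TopHat2 2.0.10, iGenomes UCSC annotation), collapsed by molecular barcode, filtered for mapping quality and pooled, and peaks were called on each strand against size‐matched input (MACS2 2.1.1.20160309) with splitting at summits. This splitting can make neighbouring peaks of 1 site, and pooling leaves no replicate error or depth.

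Positions were converted to count from 1. Sequences were read from GRCh37, and exons and introns were those of GENCODE release 44 lifted to it. The reference transcript of a gene was its coding transcript with the longest coding sequence. Peaks were assigned by centre on the gene's strand, and 18 mitochondrial peaks were left out of sequence work. Sequences are printed for 11 of the 24 FN1 peaks, and 1 of the others is not reported here. No test was made, and shares carry 95% Wilson intervals. The members, gene lists and alternatives were chosen with earlier results of these data known. Named genes were FN1, the 10 with most peaks, the 5 placed most like it, and list members with at least 5 peaks plus ITGA5, ITGB1 and ITGAV. On simulated data, 0 of 1000 interval lookups and 0 of 200 planted motifs were missed. Python 3.11.15, numpy 2.4.6, scipy 1.17.1, pysam 0.24.0 and matplotlib 3.10.9 were used.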

Additional observations from a re-analysis of the deposited data

How the results depend on the processing

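Of 34 alternatives, 26 left a count or rank within 1.5 times the main value, or a share or median within its 95% interval, and 8 did not. Some of the 26 could not have changed a value. Joining overlapping or touching peaks left all 24, since none overlapped or touched, and keeping only intron‐centred peaks also kept all 24. Among the 26, joining peaks within 50 nt left 16 FN1 peaks, the height filter put the ACTAAC share at 7.69%, and placing peaks by summit put 4.17% in exons. With a height filter at the list median, 13 of the 24 FN1 peaks were left. Counting exons of any annotated FN1 transcript moved the exonic share from 0.0 to 41.7%, since FN1-224 retains introns 25, 32 and 33, with 9 peaks, and the end of intron 24, with P15. The short site TAAC or TAAT in place of ACTAAC gave 45.8%. Around EDA the number of peaks was 0 within 250 nt, 1 within 500 nt and 4 over both introns, and around EDB it was 1, 2 and 14. At the variable region it was 0 throughout. Requiring at least 3 peaks left 11 of the list genes, beside 9.96% of all protein‐coding genes. The share of FN1 peaks in the EDB introns was 46.2% among peaks at or above the list median, 50.0% after joining peaks within 50 nt and 61.1% by covered bases. The median height of exon‐centred FN1 peaks could not be computed, since there were none. The whole‐intron counts and the EDB share were added after seeing the data. No paired analysis was possible because the libraries were pooled before peaks were called. Depth limits these counts: a site with few reads may be missing from the list.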
